A study of Mus musculus with 16 samples.

Results

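The mTORC1 nutrient sensing genes analysed here are 10 genes of 24421 in the deposited table, chosen by name from what their proteins do: Mtor, Rptor, Rheb, Tsc1, Tsc2, Rraga, Rragc, Flcn, Depdc5, and Sesn1. Earlier results of these data were known when the genes were chosen. All 10 passed the filter on low counts (14565 genes passed). They were read in RNA-Seq libraries of CD11b+ brain cells, a microglia-enriched fraction, from female C57BL/6J mice that had been on their diets for 1 month from weaning. Control mice received standard chow (CON, n = 4 libraries), malnourished mice an isocaloric diet low in protein and fat (MAL, n = 5), and a further malnourished group was also gavaged with a mix of E. coli and Bacteroidales species (MAL-BG, n = 7). CON and MAL mice were gavaged with buffer. MAL-BG therefore differs from CON in both diet and bacteria and from MAL in bacteria, and no group received bacteria on standard chow. The study's methods describe whole cerebra and the sample labels cortical tissue. Each library is listed as a separate sample, and p values measure the spread between these libraries.

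mTORC1 is a protein kinase complex that promotes protein synthesis and cell growth and restrains autophagy when nutrients are plentiful. Amino acids act through the Rag GTPases, which bring the complex to the lysosome surface, and growth factors act through Rheb, the small GTPase that switches the kinase on there. In microglia, the resident macrophages of the brain, mTOR signaling is known for its part in the metabolic shift that follows immune stimulation. RNA levels do not measure the activity of these proteins.

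The promoters of 4 of the genes are shown, chosen by the outcome of the test: Mtor fell, Sesn1 rose, and Rptor and Rragc did not pass. Whether the promoter sequences went with these outcomes was not tested. Each sequence is the stretch just before the annotated start, 5′ to 3′ on the strand of the gene, without bases of annotated exons, from the RefSeq promoter windows of GRCm38.p6, in which all 10 genes were found. Sesn1 has more than 1 annotated start, and the sequence belongs to the downstream one. Capitals mark matches, on either strand, to 7 motifs searched, namely the E-box (CACGTG), the FOXO element (GTAAACA), the ETS element (CCGGAAG), the CCAAT box (the letters of its name), the NRF1 core (GCGCATGCG), the GC box (GGGCGG), and the ATF4 composite element (TGATGNAA).
Mtor, chr4:148448332-148448581: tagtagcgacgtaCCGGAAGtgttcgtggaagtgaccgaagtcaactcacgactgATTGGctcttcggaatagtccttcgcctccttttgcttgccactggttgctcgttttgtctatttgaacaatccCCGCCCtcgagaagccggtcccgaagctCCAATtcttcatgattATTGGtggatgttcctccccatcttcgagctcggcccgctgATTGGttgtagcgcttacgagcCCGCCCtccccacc
Rptor, chr11:119602655-119602904: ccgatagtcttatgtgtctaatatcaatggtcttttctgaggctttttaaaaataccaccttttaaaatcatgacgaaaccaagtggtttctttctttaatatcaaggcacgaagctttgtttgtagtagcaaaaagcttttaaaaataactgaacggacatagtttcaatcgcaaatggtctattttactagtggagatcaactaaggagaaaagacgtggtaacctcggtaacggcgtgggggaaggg
Sesn1, chr10:41887189-41887438: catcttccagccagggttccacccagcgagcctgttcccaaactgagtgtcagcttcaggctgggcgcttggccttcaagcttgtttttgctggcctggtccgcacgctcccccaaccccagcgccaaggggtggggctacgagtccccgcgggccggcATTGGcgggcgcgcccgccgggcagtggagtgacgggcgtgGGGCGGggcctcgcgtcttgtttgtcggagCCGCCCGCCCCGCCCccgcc
Rragc, chr4:123917270-123917432: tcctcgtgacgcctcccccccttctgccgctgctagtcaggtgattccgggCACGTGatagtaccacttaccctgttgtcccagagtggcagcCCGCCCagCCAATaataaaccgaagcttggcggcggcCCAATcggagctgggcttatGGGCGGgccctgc
The Mtor stretch held 4 CCAAT boxes, 2 GC boxes, and an ETS element, whereas the Rptor stretch held none of the 7 motifs and had a GC content of 37.6% against 54.4% for Mtor. The Sesn1 stretch had a GC content of 71.2%, with a CCAAT box and overlapping GC boxes. Rragc was the 1 gene of these 4 with an E-box, the element bound by TFEB and related factors. Among the 10 genes Rheb, which did not pass either, also had an E-box in its window. Of all 32851 promoter windows, 7.15% held an E-box, 37.4% a CCAAT box, 35.7% a GC box, and 8.86% an ETS element, so the CCAAT and GC boxes are common. NRF1 and ATF4 matches were in none of the 10 genes' windows and in 1.75% and 3.97% of all windows. A FOXO element was in 3.65% of all windows and in 1 of the 10, that of Sesn1, after its start and so outside the printed stretch. A match is a description of the letters, not a bound site.

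MAL-BG libraries were deeper than all others, with 14191791 to 18705202 counts against 10312703 to 13461574 in CON and MAL. The fraction also changed in its markers. Microglia markers rose in 11 of 15 genes against CON, and their summed level was 21800 to 33900 CPM (counts relative to the library total, scaled with the TMM method) over CON, 21900 to 36600 over MAL, and 44200 to 60100 over the MAL-BG libraries. Choroid plexus markers fell in 10 of 10 genes, from 13800 to 53700 CPM in CON and 6420 to 42300 in MAL to 1760 to 16400 in MAL-BG. Neuron markers fell in 9 of 10, ependyma markers in 5 of 6, and astrocyte markers in 4 of 8 against CON. Lymphocyte sums were 41.8 to 73.2 CPM in MAL-BG against 17.2 to 30.3 in CON and 21.4 to 40.6 in MAL. Endothelium and mural cell sums were 1150 to 3750 CPM in MAL-BG against 578 to 2240 in CON and 591 to 1580 in MAL. Of these 10 genes, 2 rose and 1 fell against CON, and 3 rose and 1 fell against MAL. The monocyte sum reached 1018 CPM in MAL-BG library 5, although no monocyte marker passed as higher. Of the 6 monocyte markers, 1 fell against CON and 2 against MAL. Oligodendrocyte markers rose in 3 of 9 genes and fell in 2 in both comparisons. No border macrophage marker passed against CON, and 1 of 6 fell against MAL. Early response genes fell in 4 of 7 against CON and 6 of 7 against MAL, with sums of 6080 to 17800 CPM in MAL-BG against 14300 to 28600 in CON and 15300 to 33800 in MAL. Neutrophil markers rose in 10 of 11, with sums of 2596, 13820, and 3336 CPM in MAL-BG libraries 2, 5, and 7, while the other 4 MAL-BG libraries, at 592 to 1100 CPM, lay within the range of CON and MAL (485 to 1230). No marker of these lists that is in the table was at 0 in every library. In a further list, of erythroid markers, Hbb-bs, Hbb-bt, Hba-a1, and Hba-a2 were at 0 in every library. Ly6g, a neutrophil marker, was not analysed here. Fewer cells of a type and less RNA per cell cannot be told apart in these samples. Their part in the differences given here was not tested, except through an added fit with the summed choroid plexus level as a covariate, which is quoted where it altered a call.

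Against CON, 4 of the 10 genes passed the test (edgeR quasi-likelihood, adjusted p under 0.05), beside 45.1% of all genes tested. Mtor, Tsc1, and Tsc2 fell (25.2% of all genes fell) and Sesn1 rose (19.8% rose). All 4 were differentially expressed genes (DEGs), which need a log2 fold change beyond 0.58 in either direction, as were 33.1% of all genes. Against MAL, the same 4 genes passed, beside 44.3% of all genes. Again 3 fell (24.1% of all genes fell) and 1 rose (20.2% rose), and 3 were DEGs beside 30.4% of all genes. The share of members that passed was thus close to that of all genes. Both comparisons share the MAL-BG libraries. Between MAL and CON none of the 10 passed, beside 0.0% of all genes, and the members' changes lay between -0.18 for Rheb and 0.27 for Sesn1 on the log2 scale. In that comparison 212 genes had an unadjusted p under 0.05, and DESeq2 also called 0 genes, with 241 at an unadjusted p under 0.05.

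**Figure D1:**
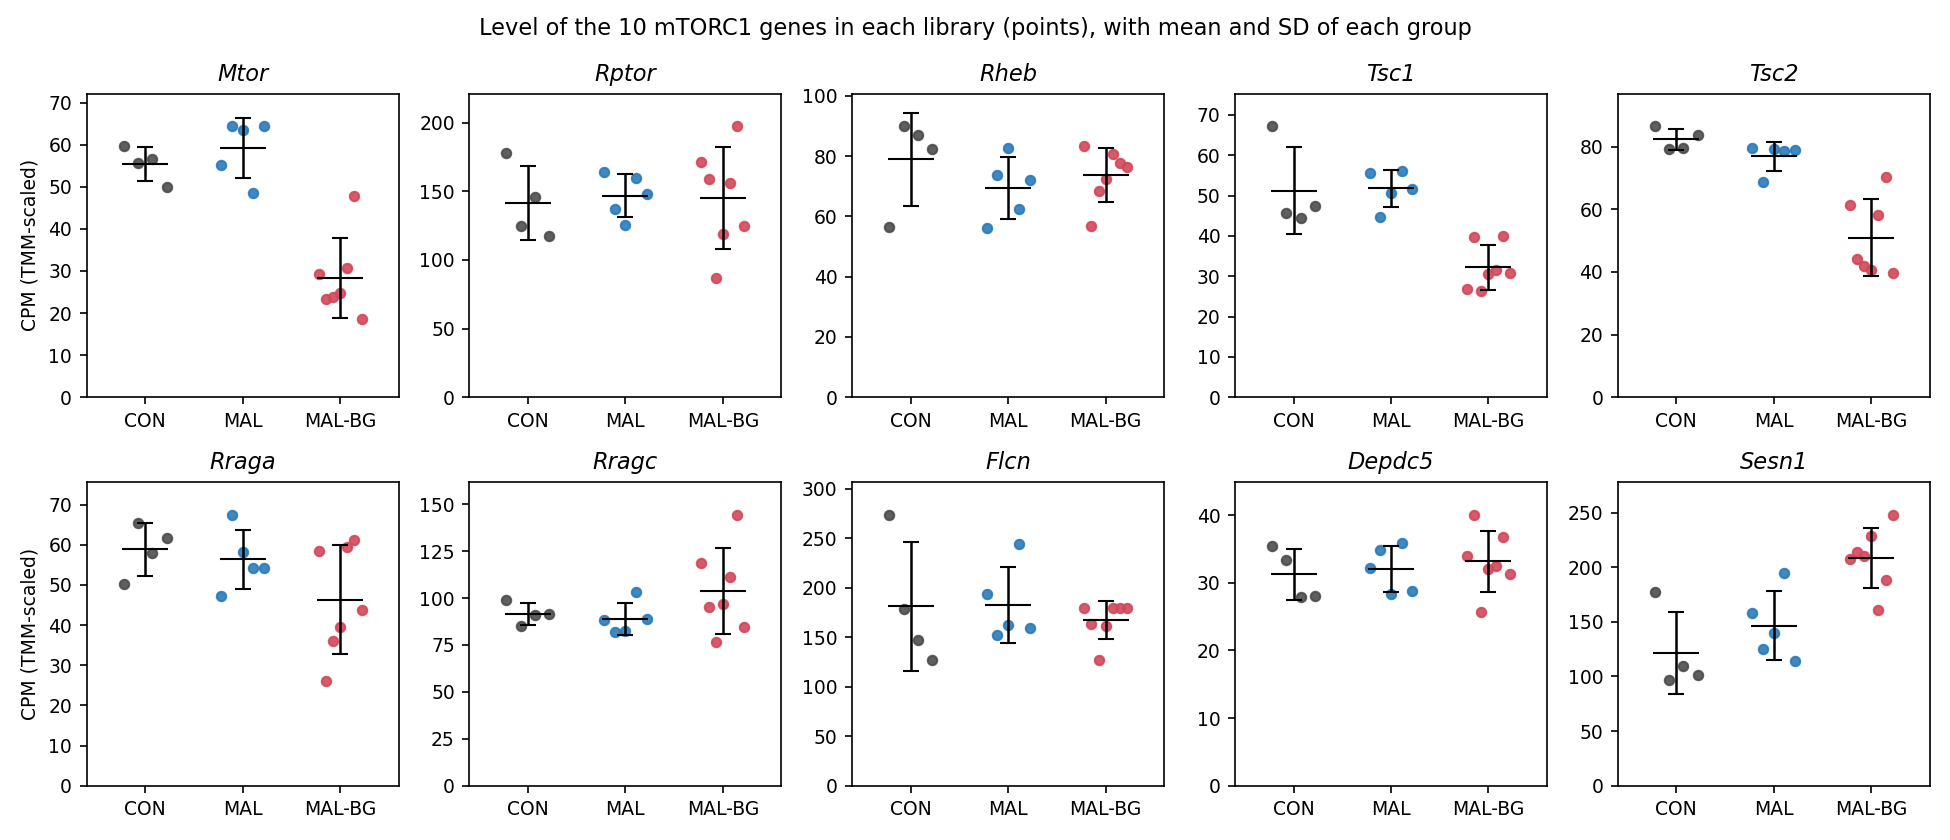
Level of each of the 10 genes in every library, in CPM on TMM-scaled library sizes (vertical axes, each from 0), by group (horizontal axis), with bars for the mean and SD of each group (n = 4, 5, and 7). All MAL-BG points of Mtor and Tsc1 lie below all CON and MAL points, while those of Rptor, Rheb, Flcn, and Depdc5 lie within or around them.

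The core of the complex is the kinase itself, encoded by Mtor (chr4:148448582-148557685, plus strand), and its scaffold raptor, encoded by Rptor (chr11:119602905-119899591, plus strand), which presents substrates to the kinase. Mtor fell about 2-fold, while Rptor showed no detectable change. Mtor stood at 59.7, 55.6, 56.7, and 49.9 CPM in the CON libraries. It stood at 55.1, 64.5, 63.6, 48.6, and 64.4 CPM in the MAL libraries. In MAL-BG its lowest, median, and highest values were 18.5, 24.7, and 47.7 CPM. All 7 MAL-BG libraries were below all 9 others, as for 6.36% of all genes, but the margin was thin, since MAL-BG library 6 at 47.7 CPM came next to MAL library 4 at 48.6 CPM. Mtor was 1.96-fold lower than in CON (log2 fold change -0.97, SE 0.19, adjusted p = 6.73e-04) and 2.09-fold lower than in MAL (log2 fold change -1.06, SE 0.18, adjusted p = 2.39e-04).

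Rptor stood at 177.9, 125, 146, and 118 CPM in CON. It stood at 164, 137, 126, 159, and 148 CPM in MAL. In MAL-BG it ranged from 86.5 through a median of 156 to 198 CPM, so its groups overlapped fully. The fitted difference was 0.03 against CON (95% interval on 13 residual degrees of freedom -0.36 to 0.42, adjusted p = 0.894) and -0.02 against MAL (-0.38 to 0.35, adjusted p = 0.940). A change of Rptor as large as that of Mtor lies outside both intervals. MAL-BG library 6 was the highest MAL-BG library for Rptor as for Mtor, at 198 CPM.

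Rheb (chr5:24802823-24842361, minus strand) encodes the GTPase that activates mTORC1, and Tsc1 (chr2:28640993-28691172, plus strand) and Tsc2 (chr17:24595816-24632676, minus strand) encode the complex that holds Rheb in its inactive form. Transcripts of both inhibitor subunits fell, and that of Rheb did not pass the test. Tsc1 stood at 67.3, 45.7, 44.5, and 47.4 CPM in CON. It stood at 55.7, 44.7, 50.8, 56.1, and 51.7 CPM in MAL. In MAL-BG its lowest, median, and highest values were 26.3, 30.7, and 40.0 CPM, again with all 7 MAL-BG libraries below the other 9. Tsc1 was 1.59-fold lower than in CON (log2 fold change -0.67, SE 0.14, adjusted p = 0.00131; -0.52 and under the size of a DEG without CON library 1) and 1.61-fold lower than in MAL (-0.68, SE 0.13, adjusted p = 7.68e-04).

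Tsc2 stood at 86.6, 79.3, 79.6, and 83.7 CPM in CON. It stood at 79.5, 68.7, 79.2, 78.6, and 79.1 CPM in MAL. In MAL-BG its lowest, median, and highest values were 39.6, 44.1, and 70.5 CPM. The MAL-BG libraries spread widely for this gene, with libraries 1, 5, and 6 at 61.4, 58.0, and 70.5 CPM above the other 4, and library 6 above MAL library 2. Tsc2 was 1.62-fold lower than in CON (log2 fold change -0.69, SE 0.14, adjusted p = 0.00115) and 1.51-fold lower than in MAL (-0.60, SE 0.14, adjusted p = 0.00226). The difference from MAL was close to the size needed for a DEG. Tsc2 exons overlap those of Pkd1 on the opposite strand over 693 bases, and the sources do not state the strand setting of the counting. Rheb ranged from 56.4 to 90.0 CPM in the CON libraries, 56.2 to 82.7 in the MAL libraries, and 56.9 to 83.2 in the MAL-BG libraries, so the 3 groups covered nearly the same range. Rheb differed from CON by -0.10 on the log2 scale (95% interval -0.40 to 0.20) and from MAL by 0.09 (-0.20 to 0.37).

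RagA, encoded by Rraga (chr4:86575673-86577285, plus strand), pairs with RagC, encoded by Rragc (chr4:123917433-123936997, plus strand), and the pair docks raptor at the lysosome when amino acids are present. Folliculin, encoded by Flcn (chr11:59791408-59810039, minus strand), sets the nucleotide state of RagC. None of these 3 transcripts passed the test in either MAL-BG comparison. Rraga stood at 50.1, 65.4, 57.9, and 61.8 CPM in CON. It stood at 47.3, 67.5, 58.2, 54.3, and 54.3 CPM in MAL. In MAL-BG it spread from 26.1 through a median of 43.6 to 61.2 CPM, with libraries 1, 5, and 6 at the level of the other groups and the remaining 4 below all 9 others. Its fitted difference was -0.34 against CON (SE 0.19, adjusted p = 0.153) and -0.28 against MAL (SE 0.18, adjusted p = 0.211).

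Rragc ranged from 85 to 99.2 CPM over the CON libraries, from 81.8 to 103 over MAL, and from 76.4 to 144.5 over MAL-BG, where libraries 1, 5, and 6 were again the highest. Its difference from CON was 0.18 on the log2 scale (SE 0.14, adjusted p = 0.314) and from MAL 0.22 (SE 0.13, adjusted p = 0.179). Its exons share 264 bases with 4930535I16Rik on the opposite strand. Flcn ranged from 127 to 273.9 CPM over CON, from 152 to 244 over MAL, and from 127 to 179.7 over MAL-BG. Flcn varied more within CON than between groups, with CON library 1 at 273.9 and MAL library 4 at 244 CPM. Flcn differed by -0.12 from CON (SE 0.18) and by -0.13 from MAL (SE 0.17) on the log2 scale.

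Depdc5 (chr5:32863646-32994233, plus strand) encodes a subunit of GATOR1, the complex that shuts RagA off when amino acids are scarce. Sesn1 (chr10:41810574-41908436, plus strand) encodes sestrin 1, a stress-induced protein that restrains the pathway through GATOR2, the inhibitor of GATOR1. Sesn1 rose in MAL-BG, and Depdc5 did not pass the test. Sesn1 stood at 177, 96.7, 109, and 102 CPM in CON. It stood at 158, 125, 140.2, 195, and 114 CPM in MAL. In MAL-BG its lowest, median, and highest values were 161, 210.2, and 248 CPM. The groups overlapped through CON library 1 and MAL library 4. Sesn1 was 1.72-fold higher than in CON (log2 fold change 0.78, SE 0.18, adjusted p = 0.00242) and 1.42-fold higher than in MAL (0.51, SE 0.17, adjusted p = 0.0198), the latter under the size needed for a DEG.

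CON library 1, MAL library 1, and MAL library 4, the libraries highest in Sesn1 within their groups, had the lowest summed choroid plexus levels of those groups, at 13850, 12370, and 6424 CPM. In MAL-BG this order was not seen. Library 3, with the highest choroid plexus level at 16420 CPM, stood at 210.2 CPM for Sesn1. Library 5, at 3343 CPM, had the lowest Sesn1 level at 161 CPM. CON library 1 and MAL libraries 1 and 4 also had the highest summed microglia levels of their groups, at 33850, 29700, and 36560 CPM. The part of the microglia level in the Sesn1 values was not tested. With the choroid plexus level as a covariate, the log2 fold change of Sesn1 was 0.46 against CON (adjusted p = 0.138) and 0.25 against MAL (adjusted p = 0.345), and neither passed. In that fit Flcn passed as lower, at -0.61 (adjusted p = 0.0462) and -0.52 (adjusted p = 0.0382), while Mtor kept -0.95 (adjusted p = 0.0297) and -1.05 (adjusted p = 0.00693). Tsc1 stood at -1.11 (adjusted p = 2.91e-04) and -1.06 (adjusted p = 1.17e-04) there. Tsc2 stood at -0.85 (adjusted p = 0.0118) and -0.73 (adjusted p = 0.00875). The falls of Tsc1 and Tsc2 were thus larger with the covariate than without it. Without MAL library 2 or 5, Sesn1 against MAL lost its call (0.45, adjusted p = 0.0539, and 0.42, adjusted p = 0.0601), and without MAL library 4 it was a DEG (0.62). Depdc5 ranged from 27.9 to 35.5 CPM over CON, from 28.4 to 35.9 over MAL, and from 25.7 to 40.1 over MAL-BG. It differed by 0.09 from CON (95% interval -0.18 to 0.36) and by 0.05 from MAL (-0.20 to 0.30) on the log2 scale.

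**Figure D2:**
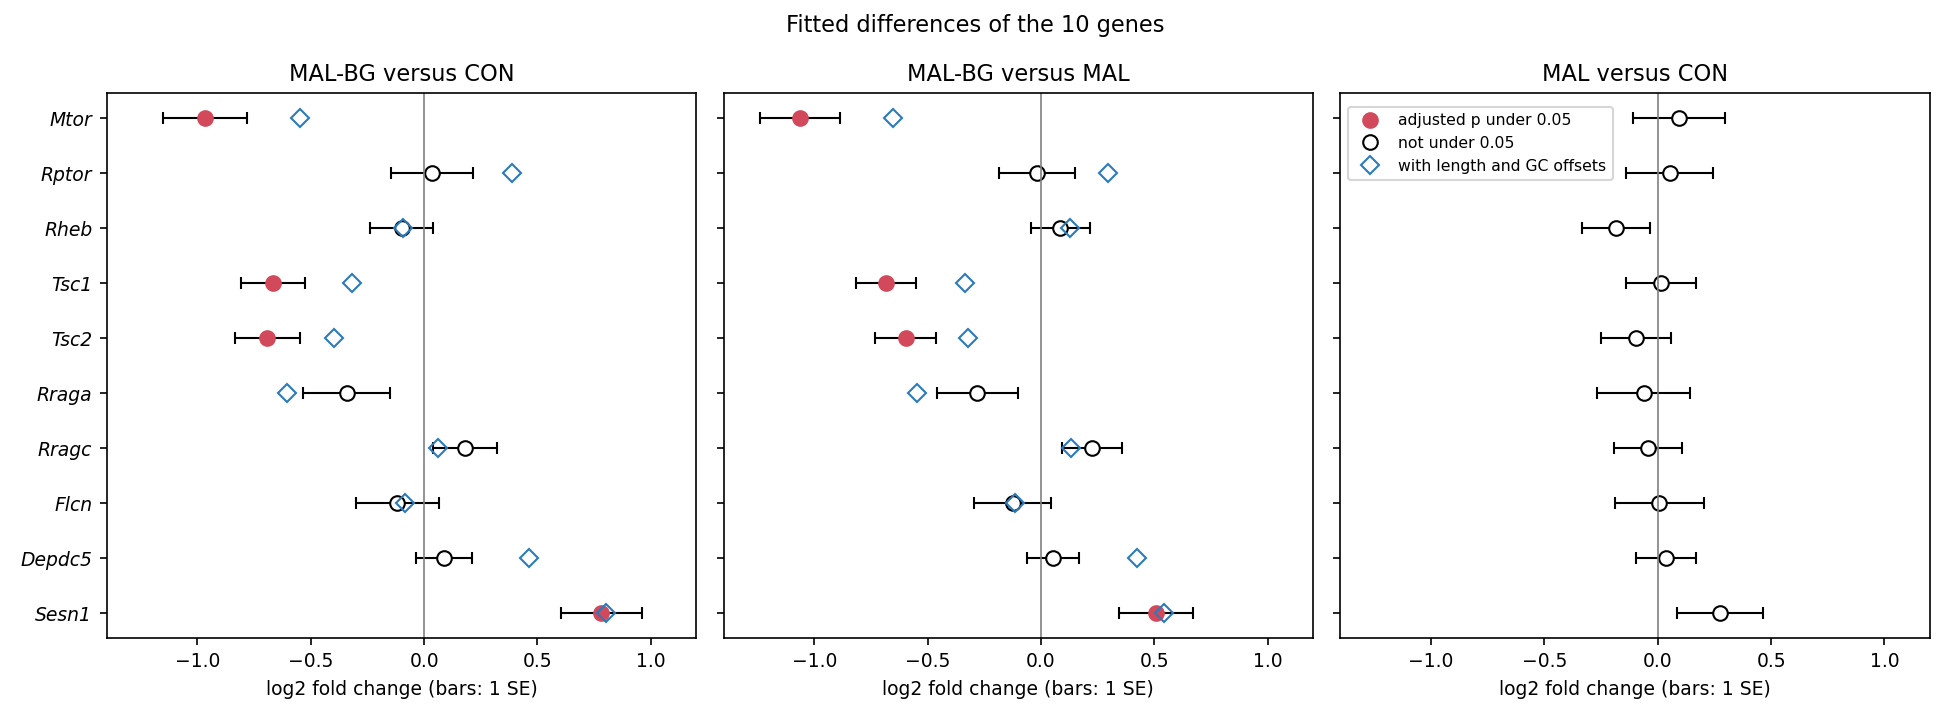
Fitted log2 fold change of each gene (horizontal axis, bars 1 SE) in the 3 comparisons, filled where the adjusted p was under 0.05, with open diamonds for the fit with length and GC offsets in the MAL-BG comparisons. Mtor, Tsc1, and Tsc2 lie to the left and Sesn1 to the right, and the diamonds of the long genes Mtor, Rptor, Tsc1, Tsc2, and Depdc5 lie to the right of their circles.

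Of the 10 genes, 5 are in the longest of 5 equal classes of transcript length, so the changes were set beside those of genes of like length (length and GC content were known for 96.3% of tested genes). Over all genes, the median log2 fold change against CON went from 0.16 in the shortest class (up to 1969 bases) through 0.08, -0.01, and -0.10 to -0.33 in the longest (5266 bases or more), and against MAL from 0.21 to -0.34. Mtor (8564 bases), Tsc1 (7702 bases), and Tsc2 (6266 bases) were below the median of that class, whereas Rptor (6594 bases) and Depdc5 (8216 bases), with values near 0, were above it. Rraga, in the shortest class at 1618 bases, was below a median that was positive. When the trend with length and GC content was taken out within each library, Mtor still passed, at -0.55 against CON (adjusted p = 0.0252), under the size of a DEG, and -0.65 against MAL (adjusted p = 0.0072). Tsc2 passed against CON alone (-0.40, adjusted p = 0.0386, and -0.32, adjusted p = 0.0720 against MAL), and Tsc1 in neither (-0.32, adjusted p = 0.0801, and -0.34, adjusted p = 0.0522).

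In the same fit Rraga passed as lower (-0.60, adjusted p = 0.0213 against CON, and -0.55, adjusted p = 0.0260 against MAL) and Depdc5 as higher (0.46, adjusted p = 0.0172, and 0.42, adjusted p = 0.0189). Sesn1, of intermediate length, stayed at 0.80 and 0.54. Centring the libraries on their mean log2 CPM as well moved the median of all genes to 0.20 and 0.19. Relative to that median Mtor then lay at -0.49 and -0.60, but its own fold changes of -0.29 (adjusted p = 0.250) and -0.41 (adjusted p = 0.0844) did not pass. Tsc1 (-0.07 and -0.11) and Tsc2 (-0.14 and -0.09) did not pass in that fit either, and Rptor passed as higher against CON (0.64, adjusted p = 0.0327), Rheb as higher against MAL (0.36, adjusted p = 0.0136), and Depdc5 as higher against CON (0.71) and MAL (0.65).

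**Figure D3:**
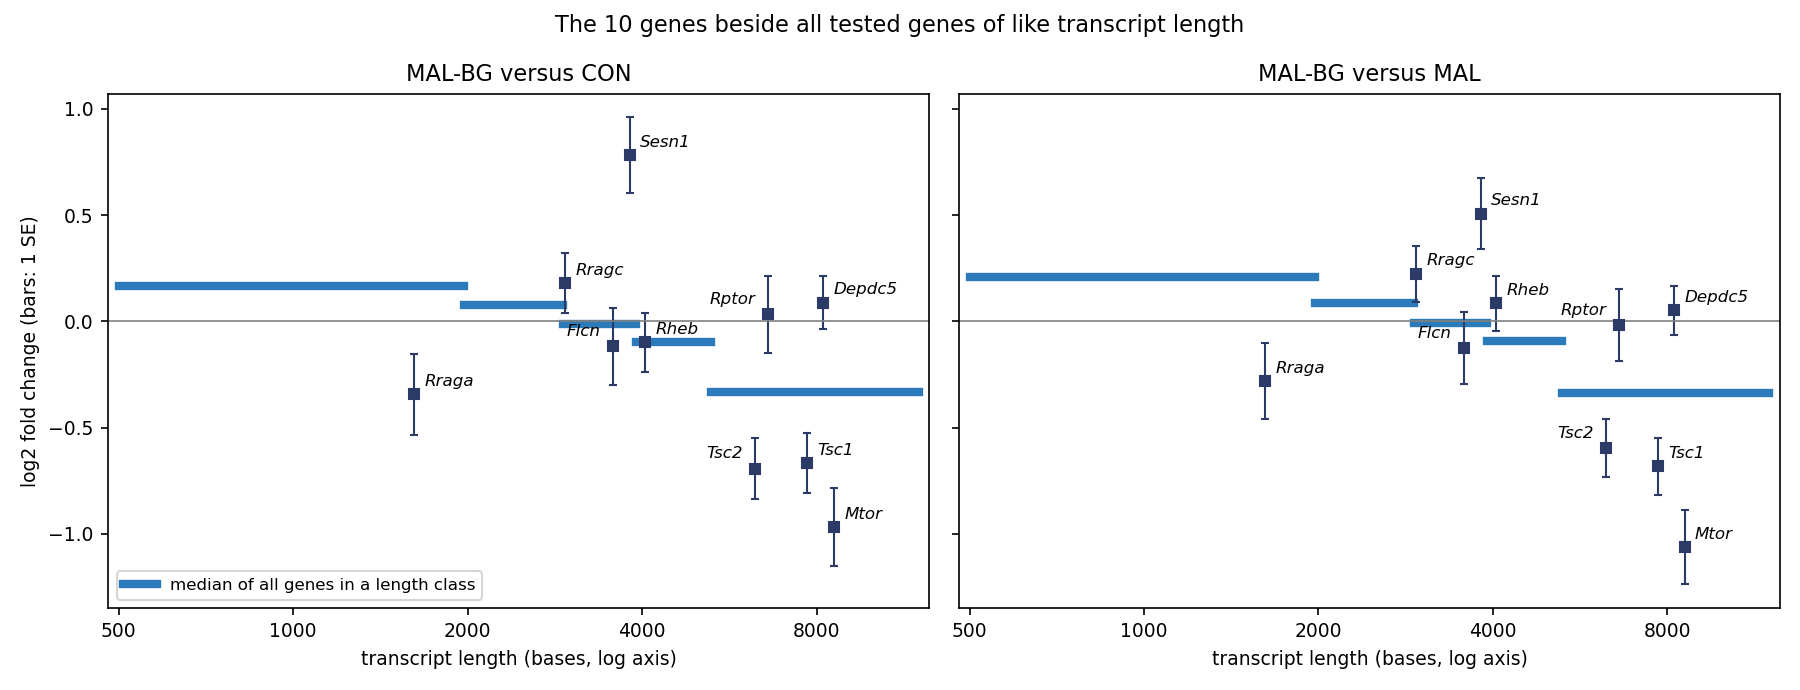
Log2 fold change of the 10 genes (squares, bars 1 SE) against transcript length in bases on a log axis, with horizontal lines for the median of all tested genes in each of 5 length classes, the outer of which are drawn only within the axis. The medians go down from left to right, with Mtor furthest below its line and Sesn1 furthest above.

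Ratios between partner genes do not depend on how libraries are scaled, and 4 of them were compared with two-sided exact permutation tests (12 tests, Benjamini-Hochberg adjusted together). These pairs were picked after the counts had been seen, and the adjustment over 12 tests does not cover that choice. Rptor to Mtor and Rheb to Tsc2 each hold a gene already called as lower. Their p values therefore largely repeat those calls and are no separate support. How many pairs among all genes differ as much was not determined. The number of Rptor reads per Mtor read was 2.98, 2.25, 2.57, and 2.36 in CON and 2.97, 2.13, 1.98, 3.28, and 2.30 in MAL. In MAL-BG it was 3.62 at the lowest, 5.08 at the median library, and 6.80 at the highest. All MAL-BG libraries were above all others, with means of 5.30 ± 1.24 (SD, n = 7) against 2.54 ± 0.32 (SD, n = 4, exact p = 0.00606, adjusted p = 0.0182) and 2.53 ± 0.57 (SD, n = 5, exact p = 0.00253, adjusted p = 0.0152). Both are the smallest p these group sizes allow. With the length and GC offsets the difference on the log2 scale was 0.96 and 0.97, beside 1.03 and 1.06 without them.

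The Rragc to Rraga ratio rose likewise, from 1.58 ± 0.29 in CON and 1.61 ± 0.29 in MAL to 2.35 ± 0.61 in MAL-BG (exact p = 0.0182 and 0.00505, adjusted p = 0.0364 and 0.0182), although neither gene passed on its own. Its groups overlapped in CON library 1 at 1.98 and MAL library 4 at 1.90, against 1.87 in the lowest MAL-BG library. Without CON library 2, 3, or 4 its exact p against CON was 0.050. The Rheb to Tsc2 ratio rose from 0.966 ± 0.219 (CON) and 0.907 ± 0.157 (MAL) to 1.5 ± 0.29 in MAL-BG (exact p = 0.0121 and 0.00253, adjusted p = 0.0290 and 0.0152). With the offsets its exact p against CON was 0.127. The Tsc2 to Tsc1 ratio was 1.64 ± 0.24, 1.49 ± 0.07, and 1.60 ± 0.40, with no detectable difference (exact p = 0.733 and 0.715). Between MAL and CON none of the 4 ratios passed (exact p from 0.238 to 0.952, smallest possible 0.0159). Without CON library 1 the Tsc2 to Tsc1 ratio differed there by -0.24 on the log2 scale (exact p = 0.0357, not adjusted), beside -0.13 with it.

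**Figure D4:**
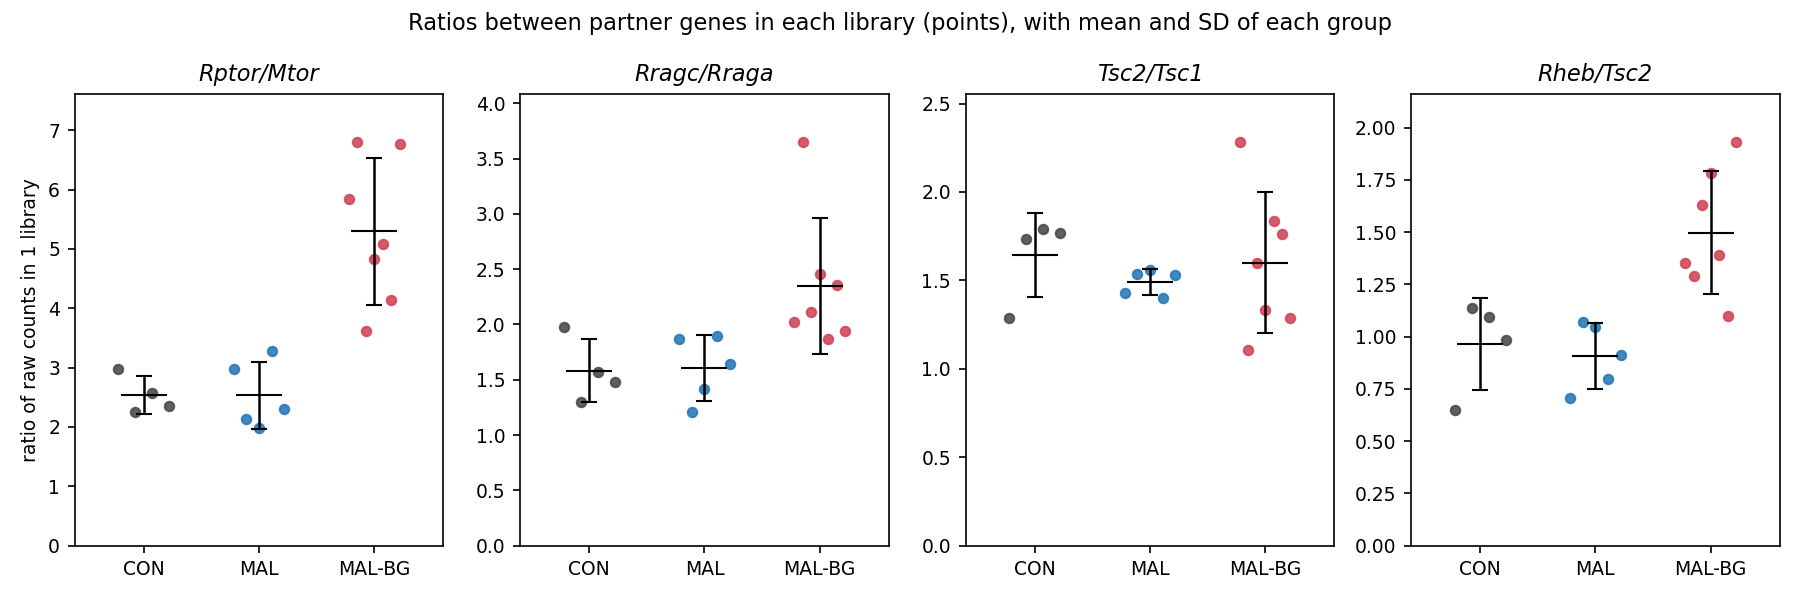
Ratio of raw counts between partner genes in each library (vertical axes from 0) by group, with bars for the mean and SD of each group (n = 4, 5, and 7). MAL-BG points lie above all others for Rptor/Mtor, mostly above for Rragc/Rraga and Rheb/Tsc2, and within the same range for Tsc2/Tsc1.

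Levels can be set between genes only per length. In CON the mean level per kilobase of the longest transcript went down in the order Flcn (50.9 CPM per kilobase), Rraga (36.4), Sesn1 (31.8), Rragc (31.1), Rptor (21.5), Rheb (19.5), Tsc2 (13.1), Tsc1 (6.65), Mtor (6.48), and Depdc5 (3.8). Neighbours from Flcn to Rragc overlapped in range, as did Rptor with Rheb and Tsc1 with Mtor, whereas Rragc and Rptor, Rheb and Tsc2, Tsc2 and Tsc1, and Mtor and Depdc5 did not. In the MAL-BG group Sesn1 came first (54.7 CPM per kilobase, range 42.3 to 65.2) and Mtor last (3.31, range 2.16 to 5.57). Mtor there overlapped Depdc5, at 4.04 CPM per kilobase, and Sesn1 overlapped Flcn, at 46.9. Per kilobase of coding sequence Rheb, with a coding length of 552 bases, came first in each group.

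The rest of the pathway was read from a list of 85 genes by role, 84 of which were tested. Against CON, 17 of the 74 genes besides the members rose and 15 fell, beside 19.8% and 25.2% of all genes. Against MAL 15 rose and 16 fell, beside 20.2% and 24.1% of all genes, so these counts were near those of all genes. Over all 84 the median log2 fold change against CON was -0.0081, beside -0.04 for all genes tested, with 48 genes that did not pass. Genes of the list moved in both directions.

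Within the Rag module, paralogs fell and several subunits of the anchoring complex rose. The Rag GTPase paralogs of the members fell, Rragb, the counterpart of Rraga, from 3.95 to 1.19 CPM (log2 fold change -1.73 against CON, adjusted p = 0.00149) and Rragd, that of Rragc, from 33.4 to 7.27 CPM (-2.20, adjusted p = 1.98e-04). The size of the Rragd change depended on the fit. Over all alternative fits it lay between -2.48 and -0.71 against CON and between -2.13 and -0.61 against MAL, and it passed in each. Of the Ragulator subunits, which anchor the Rag pair to the lysosome, Lamtor1 (0.33), Lamtor2 (0.37), Lamtor3 (0.49), and Lamtor4 (0.76) rose against CON and Lamtor5 did not pass. With the length and GC offsets Lamtor1, Lamtor2, and Lamtor3 no longer passed against CON, nor Lamtor2 against MAL. The Lamtor2 call against CON was near the threshold (adjusted p = 0.0479), and without any 1 of 9 libraries (all 4 of CON, MAL libraries 2, 3, and 5, and MAL-BG libraries 3 and 5) it did not pass (adjusted p 0.0544 to 0.145). Lamtor1 did not pass against CON without CON library 1, 2, or 4 or MAL-BG library 5 (adjusted p 0.0511 to 0.0756).

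The sestrins went different ways. Sesn2 (-1.05, adjusted p = 0.0249) and Sesn3 (-1.45, adjusted p = 2.69e-04) fell against CON while Sesn1 rose. In MAL-BG the mean level of Sesn2 was 5.94 CPM and that of Sesn3 was 3.01 CPM. Against CON, Sesn2 did not pass without CON library 1 or 2 or MAL-BG library 2, 4, or 7 (adjusted p 0.0516 to 0.0697). All 7 MAL-BG libraries were below the other 9 for Sesn3. Akt1s1, which encodes the mTORC1 inhibitor PRAS40, rose by 0.51 (adjusted p = 0.00285) with all MAL-BG libraries above the others, as for 6.17% of all genes. Rhebl1, a paralog of Rheb at 4.67 CPM in MAL-BG, rose against CON (1.01, adjusted p = 0.0231) and stood at 0.73 against MAL (adjusted p = 0.0628), a difference between the 2 comparisons that was not tested. Against CON, Rhebl1 did not pass without CON library 2, 3, or 4 (adjusted p 0.0530 to 0.0654) or with the length and GC offsets (0.73, adjusted p = 0.0732). Against MAL it passed with DESeq2 (0.76, adjusted p = 0.0362) and without MAL library 1 or 4 or MAL-BG library 5 or 6 (adjusted p 0.0178 to 0.0460).

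The partners Mlst8, Deptor, Tbc1d7, Nprl2, Nprl3, Fnip1, and Fnip2, which encode subunits or binding proteins of mTORC1, the TSC complex, GATOR1, and folliculin, passed in neither MAL-BG comparison. With Lamtor5, their log2 fold changes against CON lay between -0.24 (Tbc1d7) and 0.33 (Nprl3). Without MAL-BG library 6, Nprl3 passed against CON (0.43, adjusted p = 0.0199). With the length and GC offsets and centring, Nprl3 passed as higher against CON (0.57, adjusted p = 0.0182) and Deptor against MAL (0.48, adjusted p = 0.00687). Among the listed genes that were DEGs in both comparisons with all MAL-BG libraries on 1 side were Irs2, Ddit4, and Sesn3 below and Maf1 and Tfeb above. Irs2, an insulin receptor adaptor, went from 32.5 to 3.95 CPM (log2 fold change -3.02 against CON, adjusted p = 1.26e-04). Ddit4, which encodes the stress-induced inhibitor REDD1, fell by 1.03 on the log2 scale (adjusted p = 0.00156). Maf1, a repressor of RNA polymerase III under mTORC1 control, rose by 0.67 (adjusted p = 1.15e-04), and Tfeb, the lysosomal transcription factor that mTORC1 holds in the cytoplasm, by 0.78 (adjusted p = 5.57e-04). With the summed choroid plexus level as a covariate, 11 of these partners and listed genes lost their call against CON, namely Rragb, Sesn2, Sesn3, Akt1s1, Rhebl1, Lamtor1 to Lamtor4, Ddit4, and Tfeb (adjusted p 0.0611 to 0.466), and against MAL 7 did, namely Rragb, Sesn2, Akt1s1, and Lamtor1 to Lamtor4 (adjusted p 0.0532 to 0.615). Of all 14565 genes tested, 2778 passed against CON and 4081 against MAL in that fit, beside 6566 and 6457 without the covariate. The loss of calls was thus not particular to the listed genes. The fold changes did not all shrink in that fit. Rragb went to -0.51 against CON and -0.24 against MAL, whereas Sesn2 stood at -1.21 and -1.25 and Lamtor2 at 0.31 and 0.42.

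**Figure D5:**
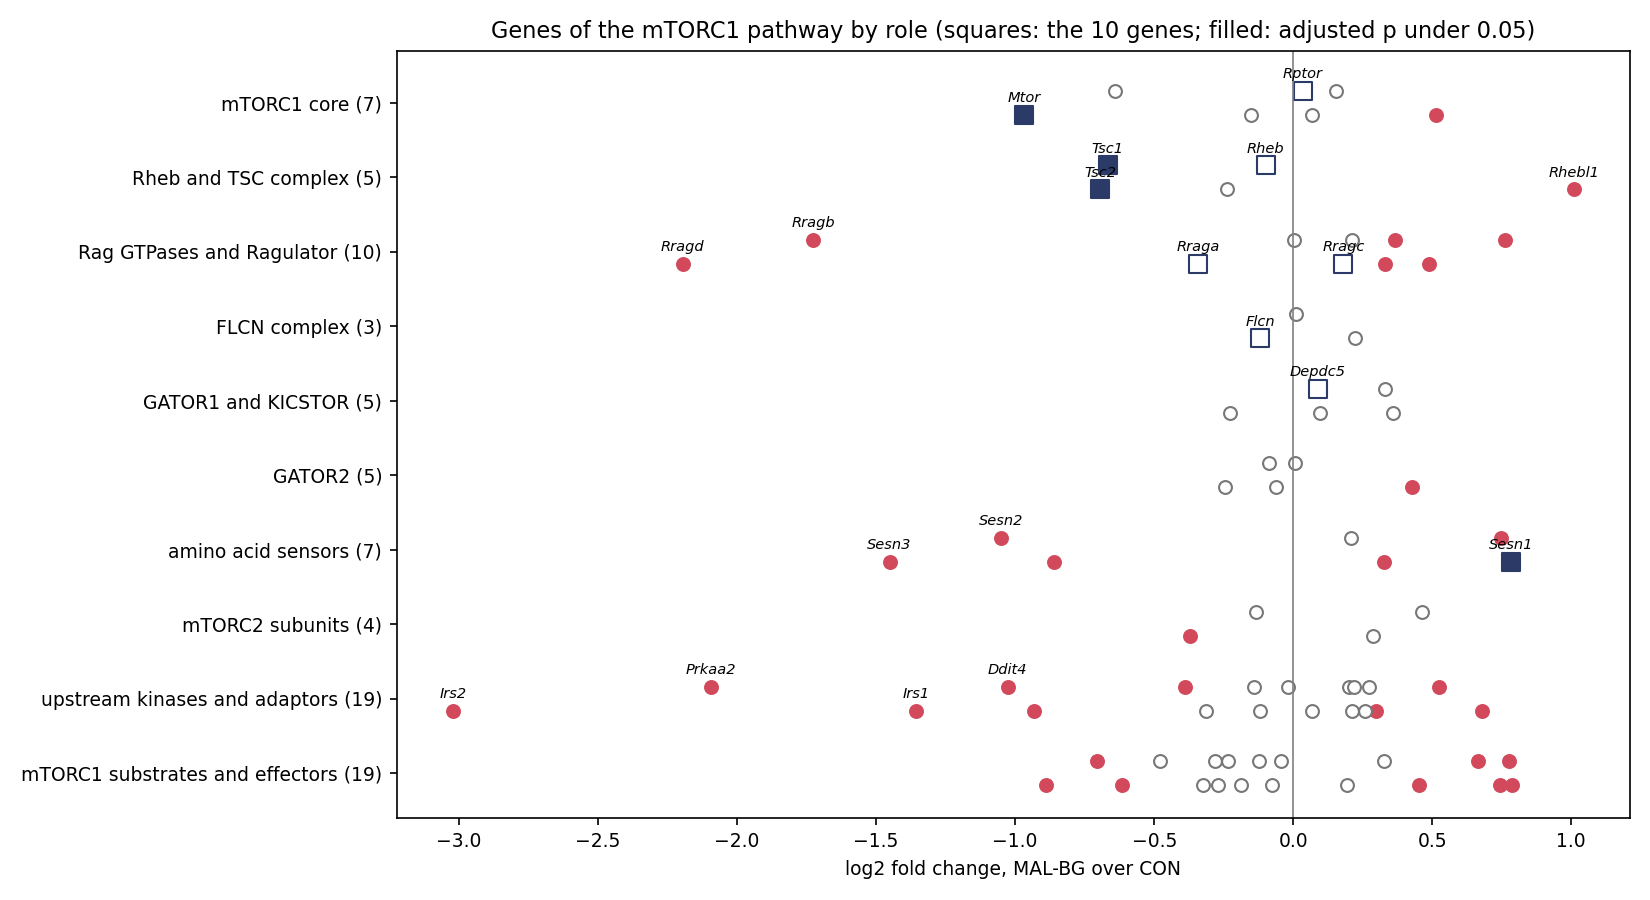
Log2 fold change of 84 pathway genes, MAL-BG over CON (horizontal axis), in rows by role with the number of genes tested in parentheses; squares are the 10 genes, circles the others, and filled symbols had an adjusted p under 0.05. Filled symbols lie on both sides of 0 in most rows, from Irs2 at -3.02 to Rhebl1 at 1.01.

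Most roles held genes of both directions, and each count by role rests on few genes and stands beside 19.8% of all genes that rose and 25.2% that fell against CON. Of the 7 core genes, Mtor fell and Akt1s1 rose against CON. Of the 7 amino acid sensors 3 rose and 3 fell, of the 10 Rag and Ragulator genes 4 rose and 2 fell, and of the 3 genes of the folliculin complex none passed (0 of 3 against MAL as well). Of the 5 GATOR1 and KICSTOR genes none passed, of the 5 GATOR2 genes 1 rose, and of the 4 mTORC2 subunits 1 fell. Of 19 substrates and effectors 5 rose and 3 fell, and of 19 upstream kinases and adaptors 3 rose and 6 fell.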

How the data were processed

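CD11b+ cells were enriched from brain with magnetic beads, and stranded poly(A) libraries were sequenced. After STAR alignment to GRCm38 and HTSeq counting, the authors deposited raw gene counts in 1 table; the strand setting and annotation of the counting are not given in the sources used here. Groups were taken from the column names, whose running numbers match no sample title, and these numbers name the libraries in the text. The study's DESeq2 fit had a batch term, which was not used because the sources do not tie batches to columns.

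A gene was tested when its count exceeded 10 in 4 or more libraries. In R 4.3.3, edgeR 4.0.16 (TMM scaling, quasi-likelihood test, 3 groups in 1 fit, Benjamini-Hochberg adjustment over all 14565 genes) was applied. The SE is the log2 fold change divided by the root of the F statistic. CPM used TMM-scaled library sizes. Transcript length, coding length, and GC content came from GENCODE M21, promoter sequences from RefSeq (GRCm38.p6). Ratios were compared on the log2 scale with exact permutation tests (scipy 1.17.1). Alternatives were other scaling and filters, DESeq2 1.42.0, thinned libraries, offsets for length and GC content, each library left out, and, chosen after seeing the data, the choroid plexus covariate and leaving out MAL-BG libraries 3 and 5. The steps were also run on simulated counts that held no trend with length or GC content. The outcome of that run is not reported here, and no result above rests on it. Within each group, libraries were further apart than sampling noise (chi-square at least 9.8 times its degrees of freedom), so none was merged.

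The members, gene lists, and tests were chosen with earlier results of these data known. Named were the 10 members, 18 paralogs and binding partners, and pathway genes that were DEGs in both MAL-BG comparisons with all MAL-BG libraries on 1 side. A further gene of the pathway list is not reported here, and the counts leave it out.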

Additional observations from a re-analysis of the deposited data

Results flagged for a closer look

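Of 42 group values tested for a library far from the rest of its group with Dixon's test at the 95% level, 5 had one, and chance gives about 1 in 20. Tsc1 stood at 67.3 CPM in CON library 1, beside 44.5 to 47.4 CPM in the other CON libraries. Tsc2 stood at 68.7 CPM in MAL library 2, beside 78.6 to 79.5 CPM in the other MAL libraries. Flcn stood at 127 CPM in MAL-BG library 3, beside 162 to 179.7 CPM in the other MAL-BG libraries. The Rragc to Rraga ratio was 3.65 in MAL-BG library 2, beside 1.87 to 2.45 in the others. The Tsc2 to Tsc1 ratio was 1.29 in CON library 1, beside 1.73 to 1.79 in the others.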

How the results depend on the processing

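Against CON, 4 members were DEGs, and 2 with length and GC offsets, namely Sesn1 (0.80) and Rraga (-0.60), which was none without them, while Mtor (-0.55), Tsc1 (-0.32), and Tsc2 (-0.40) were no longer. Against MAL, 3 were, and 1 with the offsets, Mtor (-0.65). DEGs among all genes numbered 4576 and 4180 with the offsets, beside 4820 and 4423. Leaving out 1 library at a time left 3 to 4 and 2 to 4 member DEGs. Tsc2 was then no DEG against CON without MAL-BG library 7 (-0.57), nor against MAL without MAL-BG library 2, 3, 4, or 7 (-0.56 to -0.48). With the choroid plexus covariate 2378 genes were DEGs against CON. The cause of these changes was not tested. The other scalings (DESeq2 size factors, upper quartile), DESeq2 itself, the filters, thinning, the fit of only the groups compared, and leaving out MAL-BG libraries 3 and 5 moved no member across an adjusted p of 0.05, but Tsc2 against MAL fell under the size of a DEG with DESeq2 size factors (-0.57), DESeq2 (-0.57), and thinning (-0.577). DEGs that were higher made up 34.4% of those against CON and 33.4% against MAL, and 57.8% and 57.6% with offsets and centring on the mean log2 CPM.

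Signs turned only where the value was not called in the main fit. With the choroid plexus covariate, Rptor against CON was -0.49, Rheb 0.26, Rragc -0.12, and Depdc5 -0.21, and against MAL Rragc was -0.0242, Depdc5 -0.19, and Deptor 0.12. With offsets and centring, Rheb was 0.17 and Flcn 0.15 against CON, and Rptor was 0.52, Flcn 0.10, and Deptor 0.48 against MAL. Deptor there passed as higher (adjusted p = 0.00687). Against MAL, Rptor was 0.0097 with DESeq2 size factors, 0.0097 with DESeq2, 0.30 with offsets, and 0.0678 without MAL-BG libraries 3 and 5, and Deptor was 0.26 with offsets. Between MAL and CON the log2 Rragc to Rraga ratio was -0.0049 with thinned libraries and -0.0125 with offsets, and against MAL the Tsc2 to Tsc1 ratio was -0.014 with offsets. With 1 library left out, Rptor ranged from -0.0561 to 0.15 against CON and -0.11 to 0.0749 against MAL, Rheb from -0.25 to 0.0244 against CON, and Flcn from -0.26 to 0.14 against CON. The log2 Tsc2 to Tsc1 ratio then ranged from -0.18 to 0.0192 against CON and -0.0257 to 0.15 against MAL. Between MAL and CON, Rptor to Mtor ranged from -0.13 to 0.0574, Rragc to Rraga from -0.0704 to 0.13, and Rheb to Tsc2 from -0.25 to 0.0125.

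With coding length in place of transcript length, 4 of the 10 members kept their place in the order of levels for CON, 2 for MAL, and 4 for MAL-BG. No paired analysis was possible because the column numbers match no numbers in the sample titles. The adjusted p of Mtor stayed under 0.05 in each alternative tried except offsets with centring, with values from -1.14 to -0.29 against CON and -1.24 to -0.41 against MAL.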
